A study of Mus musculus with 6 samples.

Results

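The Clec genes encode members of the C-type lectin superfamily, and they were taken as every gene whose symbol in the platform annotation begins with Clec, on a row of the table that names exactly 1 gene. This gave 33 of the 19938 named genes, on 34 rows, because Clec4g had a second row. Where a gene had several rows, the brightest row by its mean across arrays was used. Expression was measured in larger proximal airways of 9-week-old mice (Mix C57BL/6 and 129X1), cut from stained frozen lung sections by hand under a microscope, with 1 Affymetrix mouse gene array per RNA sample. The 3 control arrays came from animals that carried only the Scgb1a1-Cre driver. The 3 mutant arrays came from Scgb1a1-cre:Foxp1flox/flox:Foxp4flox/flox mice, so the driver is shared by every sample and the floxed alleles of the forkhead transcription factor genes Foxp1 and Foxp4 are not. Scgb1a1 is a gene of airway club cells, so the driver acts in epithelium, and immune, vascular and cartilage cells of the dissected piece are not its targets. All values are log2 expression values as deposited, which the submitters made by robust multiarray averaging (RMA).

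The targeted genes were read first, since they check the labels. Foxp1 read 9.42, 9.62 and 9.55 in controls and 9.24, 9.34 and 9.31 in mutants (log2 difference -0.23, limma adjusted p = 0.444), and Foxp4 read 8.77, 9.01 and 8.95 against 8.41, 7.77 and 8.49 (-0.69, adjusted p = 0.339). For both genes the mutant values were all under the control values, although neither passed the test. The dissected piece holds cells that the driver does not reach, and whether the probes lie inside the deleted exons was not examined, so these values are a weak check of the genotypes.

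C-type lectin receptors bind glycans, lipids or proteins on microbes, dying cells and neighbouring cells. Many of the myeloid members sit on macrophages, dendritic cells and granulocytes of the airway wall, where receptors with an activating tail or adaptor work through the kinase Syk and the adaptor Card9, and receptors with an inhibitory tyrosine motif recruit the phosphatases Ptpn6 and Ptpn11. In the mouse most of these genes lie in clusters on chromosome 6, which held 25 of the 33 members in the reference gene table.

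Clec12a, an inhibitory receptor of myeloid cells that recognises uric acid crystals, was the member with a called difference between the genotypes. Its log2 level was 6.67, 7.31 and 7.16 in controls 1 to 3 and 9.19, 9.53 and 9.31 in mutants 1 to 3. Every mutant array lay above every control array, with a gap between the groups far wider than the spread within either. The mean rose from 7.05 ± 0.34 (SD, n = 3) to 9.34 ± 0.17, a log2 difference of 2.29 (SE 0.184, 95% interval 1.85 to 2.74), or 4.91-fold. In limma's test over all genes the adjusted p was 0.0129 (Benjamini-Hochberg). An exact two-sided permutation test of its 3 against 3 values gave p = 0.1, the smallest value that this design allows. Of the 33 members, 1 passed as higher (3.03%) and 0 as lower, beside 0.236% of all genes called higher and 0.0301% called lower. At an unadjusted limma p under 0.05 there were 2 members (6.06%), Clec12a and Clec2m, against 10.1% of all genes. Groups did not overlap for 3 members, Clec12a, Clec2m and Clec2h, all higher in mutants. That share of 9.09% is near the 9.33% of all genes with every mutant array above every control array. No member had every mutant array below every control array, as 5.64% of all genes did.

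The call on Clec12a was lost when any of 5 arrays was left out. Without control 2 the limma adjusted p was 0.0530, without control 3 it was 0.0846, and without mutants 1, 2 and 3 it was 0.0703, 0.0510 and 0.0927. Without control 1 it was 0.00594. The log2 difference stayed between 2.11 and 2.43 in these fits. Samples carry numbers within a group, but the labels do not say that each came from its own mouse, and the spread behind each p-value is that of these samples, part of which may be technical.

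The promoter of Clec12a is shown because Foxp1 and Foxp4 bind forkhead motifs, and that of Clec12b because this gene lies next to Clec12a and did not pass the test. Both are RefSeq sequences of GRCm38.p6, 300 bases across the annotated start, written 5′ to 3′ on the gene's strand. Clec12a lies at chr6:129349994-129350293 on the plus strand and Clec12b at chr6:129385454-129385753 on the minus strand. Capitals mark the purine-rich box GAGGAA, the site bound by the myeloid factor PU.1, on either strand.
Clec12a: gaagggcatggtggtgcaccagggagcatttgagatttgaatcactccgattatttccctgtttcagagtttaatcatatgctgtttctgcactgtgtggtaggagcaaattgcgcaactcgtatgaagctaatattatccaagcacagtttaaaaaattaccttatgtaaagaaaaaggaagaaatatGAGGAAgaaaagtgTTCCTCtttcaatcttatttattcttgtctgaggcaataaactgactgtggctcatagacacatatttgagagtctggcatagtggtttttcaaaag
Clec12b: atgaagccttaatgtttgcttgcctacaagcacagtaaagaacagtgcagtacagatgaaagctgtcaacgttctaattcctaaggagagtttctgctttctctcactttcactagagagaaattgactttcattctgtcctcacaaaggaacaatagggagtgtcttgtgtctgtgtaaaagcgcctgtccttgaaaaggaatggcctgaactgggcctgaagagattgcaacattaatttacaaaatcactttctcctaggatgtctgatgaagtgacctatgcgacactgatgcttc
The Clec12a window held GAGGAA 61 bases before the start and its reverse complement TTCCTC 47 bases before it, while the Clec12b window held neither. The same box was in 28.3% of the 32851 promoter windows of this length in the table. It was found for 15 of the 26 Clec genes with a window. Here and below a gene was counted if any of its windows held the motif, so gene counts and window shares are on different bases. Neither forkhead spelling searched on both strands, TGTTTAC or TATTTAC, was in the Clec12a or Clec12b window. Other spellings that forkhead factors may bind were not searched, so the windows cannot be said to lack such sites. TGTTTAC occurred in 3.65% of all windows and in 0 of the 26 Clec genes, and TATTTAC in 3.04% of windows and 1 Clec gene, Clec4a2. These letter matches describe the windows alone and do not locate a bound site.

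The next question was whether Clec12a moved with the other myeloid lectins. Across the 13 other Clec genes listed as myeloid receptors, 0 passed the test, 4 differences lay above 0 and 9 below, and the median log2 difference was -0.013, beside 0.016 over all genes. Their differences ran from -0.19 to 0.34. The highest upper bound of any of their 95% intervals was 1.01, for Clec4a3, which is below the lower bound of 1.85 for Clec12a. The mean level of these 13 genes came to 5.35, 5.68 and 5.58 for controls and to 5.35, 5.93 and 5.33 for mutants, and the groups overlapped. Subtracting this mean from the Clec12a value of the same array left 1.32, 1.63 and 1.58 in controls and 3.84, 3.60 and 3.98 in mutants. The group means of that quantity were 1.51 ± 0.17 and 3.81 ± 0.19 (SD, n = 3), a gap of 2.30 to which no test was applied. In a piece of tissue, a different number of cells and a different RNA level per cell cannot be told apart.

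**Figure D1:**
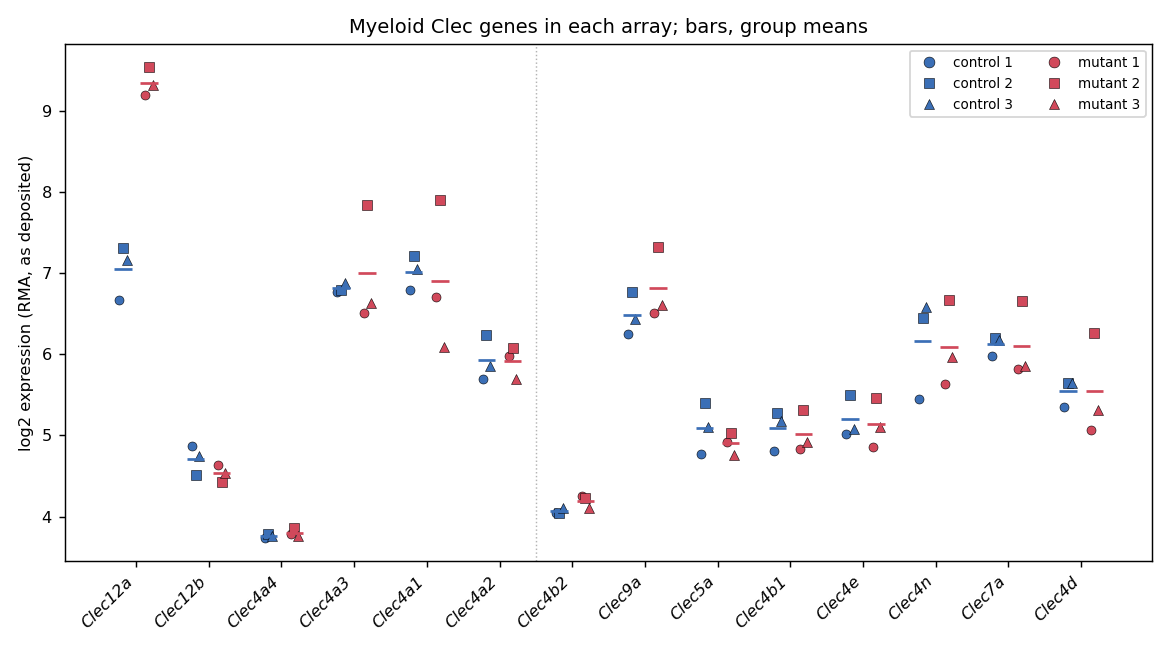
Log2 expression of the 14 myeloid Clec genes in each of the 6 arrays (blue, control; red, mutant; symbol, replicate number; bars, group means), with inhibitory and related receptors left of the dotted line and pattern and damage receptors right of it. The mutant arrays of Clec12a read 9.19 to 9.53 against 6.67 to 7.31 in controls, while the groups of the other 13 genes overlapped.

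Among the receptors grouped with Clec12a, Clec12b is its closest neighbour on the chromosome and also carries an inhibitory motif. It read 4.87, 4.51 and 4.74 in controls and 4.64, 4.43 and 4.54 in mutants (log2 difference -0.17, 95% interval -0.46 to 0.11), with overlapping groups. The DCIR receptors of dendritic cells and macrophages followed single arrays more than genotype. Clec4a1 read 6.79, 7.21 and 7.05 in controls against 6.70, 7.90 and 6.09 in mutants, a log2 difference of -0.12 (-1.17 to 0.92). Clec4a3 read 6.76, 6.79 and 6.88 against 6.51, 7.84 and 6.63, a difference of 0.19 (-0.63 to 1.01). In both of these genes mutant 2 was above all controls and mutants 1 and 3 were below all of them. Clec4a2, the classical DCIR gene, read 5.69, 6.23 and 5.86 against 5.98, 6.08 and 5.70, with a difference of -0.009 (-0.41 to 0.39). Clec4a4, or DCIR2, read between 3.74 and 3.86 in every array, below the lower quartile of all values on the arrays (4.47), and no difference could be read from it.

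The receptors for microbial patterns and for damage gave the same picture of arrays that differed within groups. Clec9a, with which dendritic cells sense the exposed actin of dead cells, had the highest difference of them. It read 6.25, 6.76 and 6.43 in controls and 6.51, 7.32 and 6.61 in mutants, a log2 difference of 0.34 (95% interval -0.25 to 0.92, limma adjusted p = 0.717). The groups overlapped, and without mutant 2 the difference was 0.084. Clec7a, the beta-glucan receptor Dectin-1, read 5.98, 6.20 and 6.18 against 5.82, 6.65 and 5.85, a difference of -0.013 (-0.57 to 0.54). Clec4n, the mannan receptor Dectin-2, read 5.45, 6.44 and 6.58 against 5.63, 6.67 and 5.96, a difference of -0.069 (-0.97 to 0.83). For both genes the mutant arrays lay on either side of the control mean.

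Clec4e, or Mincle, which binds mycobacterial glycolipid, read 5.02, 5.50 and 5.08 in controls and 4.86, 5.46 and 5.10 in mutants. Its partner Clec4d read 5.35, 5.64 and 5.65 against 5.07, 6.26 and 5.31. The differences were -0.058 (95% interval -0.52 to 0.41) for Clec4e and -0.003 (-0.73 to 0.73) for Clec4d, and groups overlapped for both. Clec5a, which signals through the adaptor Tyrobp, read 4.77, 5.40 and 5.10 against 4.92, 5.03 and 4.76 (-0.19, -0.60 to 0.22). The activating receptor genes Clec4b1 and Clec4b2 were dim. Clec4b1 read 4.81, 5.28 and 5.18 against 4.83, 5.31 and 4.92 (-0.07), and Clec4b2 read 4.04, 4.05 and 4.11 against 4.25, 4.23 and 4.11 (0.13). Groups overlapped for these genes and none passed the test, which does not show that their levels were equal.

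Within each genotype, most of these genes shared an extreme array. Mutant 2 was the highest mutant array for 11 of the 13 other myeloid genes, the exceptions being Clec12b and Clec4b2, and control 1 was the lowest control array for 12, the exception being Clec12b. Clec12a itself was highest in mutant 2 and lowest in control 1. It shared these extreme arrays with most of the other genes, and the order of the remaining arrays was not compared. After the mean of the 13 genes was subtracted, mutant 2 was the lowest mutant array (3.84, 3.60 and 3.98 in mutants 1 to 3).

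**Figure D2:**
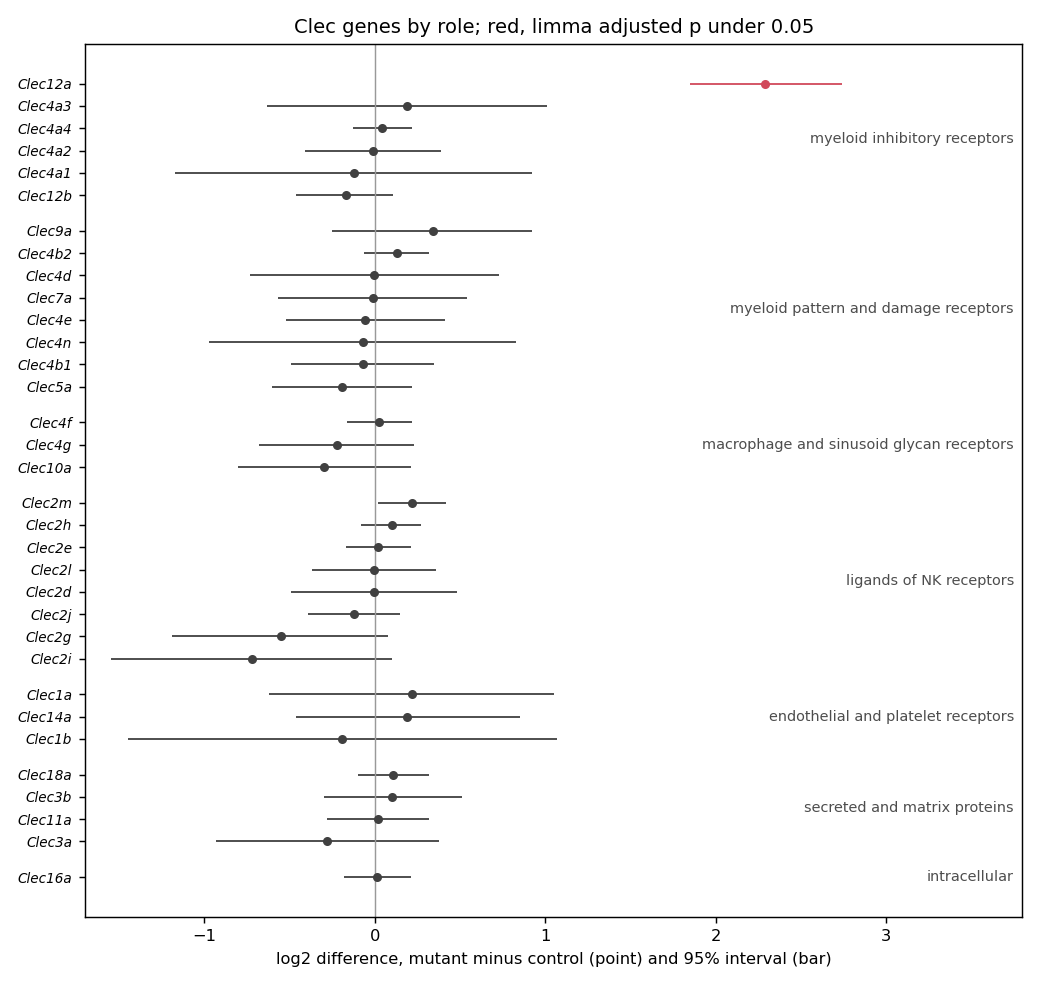
Log2 difference, mutant minus control, of all 33 Clec genes with limma's 95% interval, arranged by role. The interval of Clec12a runs from 1.85 to 2.74, and no other interval reaches above 1.07.

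Markers of the cells that carry these receptors were read on the same arrays. Hdc, the histamine-synthesising enzyme, was the 1 called gene in the marker lists. It read 7.71, 7.61 and 7.97 in controls and 10.88, 10.12 and 10.90 in mutants (log2 difference 2.87, SE 0.229, limma adjusted p = 0.0129). This call was also lost without control 2 (adjusted p = 0.0755), control 3 (0.0808), mutant 1 (0.0758) or mutant 3 (0.0748). For the mast cell and basophil list, 8 of 12 genes lay above 0 with a median of 0.032. Its mean level, which includes Hdc, ran from 5.22 to 5.68 in controls and from 5.61 to 5.76 in mutants. The differences of the list's other genes ran from -0.12 to 0.15.

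For macrophages and monocytes 0 of 16 measured genes passed, 8 lay above 0 and 8 below, and the list's mean level ran from 8.06 to 8.28 in controls and from 7.72 to 8.40 in mutants. Cd14, a co-receptor for bacterial lipopolysaccharide, read 10.39, 10.54 and 10.68 in controls and 10.06, 9.68 and 10.02 in mutants (adjusted p = 0.201 in limma, and 0.0477 with array weights). Next by p, Chil3 differed by 0.81 and C1qb and C1qc by -0.79 and -0.64, all with overlapping groups. Groups were apart for Cd14 and, in the other direction, for Marco (0.47). Dendritic cell genes had 10 of 12 members below 0, 0 called and a median of -0.45. Their mean levels were 7.0, 7.72 and 7.58 in controls and 6.92, 7.35 and 6.78 in mutants. Control 1 lay among the mutants, and controls 2 and 3 lay above every other array. Flt3, the growth factor receptor of dendritic cell precursors, read 6.42, 7.34 and 7.23 against 6.32, 6.38 and 5.89 (log2 difference -0.80, limma adjusted p = 0.405). It passed without control 1 (-1.09, adjusted p = 0.0407). Over all genes 291 passed with array weights and 388 without control 1, against 53 in the fit reported here.

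Neutrophil genes had 0 of 13 called, 6 above 0 and 7 below, and a median of -0.13, with mean levels of 6.19 to 6.74 in controls and 6.21 to 6.80 in mutants. Retnlg, a resistin-like gene of neutrophils, read 7.32, 7.63 and 7.71 against 8.50, 9.53 and 8.69 without passing (log2 difference 1.35, limma adjusted p = 0.183). Mmp9, a matrix protease of neutrophil granules, went the other way at 6.66, 6.83 and 7.02 against 6.14, 6.33 and 5.91 (-0.71, adjusted p = 0.184 in limma, and 0.0310 with array weights). Groups were apart for both genes, in opposite directions. Eosinophil genes had 0 of 6 called, 5 above 0 and 1 below, and mean levels of 4.78 to 4.93 against 4.69 to 4.93. Ear6 differed by 0.33 with groups apart, on a dim row, and Prg2 by -0.78 with overlapping groups. The mean levels of the macrophage, dendritic cell, neutrophil, eosinophil and mast cell lists overlapped between genotypes. Single genes of these lists had groups apart, with Hdc, Retnlg, Ly6g, Marco and Ear6 higher in mutants and Cd14, Flt3 and Mmp9 lower. Over all genes, every mutant array lay above every control array for 9.33% and below for 5.64%. No detection calls were used here, so no marker could be called absent, and the part of any cell type in the Clec12a difference was not tested. Airway epithelial genes had mean levels of 10.26 to 10.75 in controls and 10.17 to 10.84 in mutants, and the club cell gene Scgb1a1 read 12.13 to 12.58 on the 6 arrays.

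**Figure D3:**
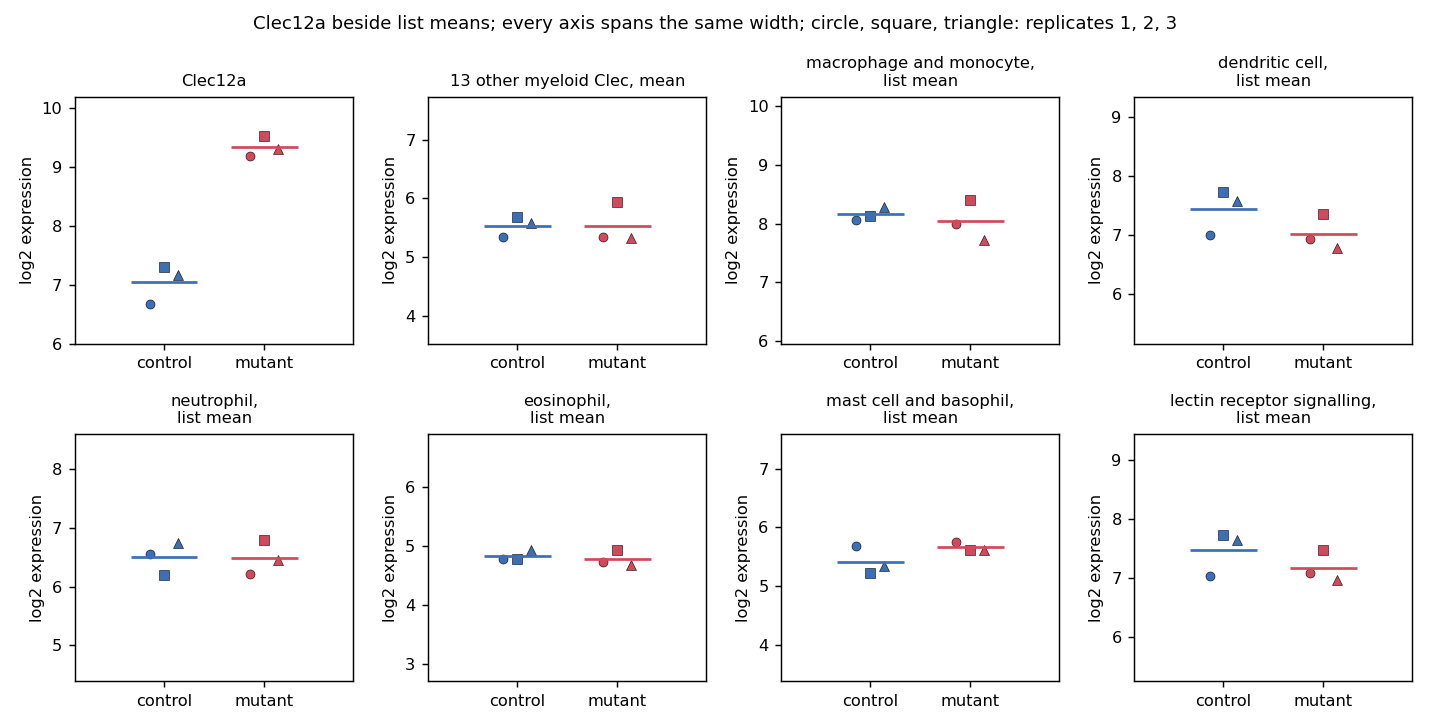
Clec12a, the mean of the other 13 myeloid Clec genes and the mean level of fixed marker lists in each array (log2 expression; every axis spans the same width; bars, group means). The Clec12a groups lie apart, at 6.67 to 7.31 and 9.19 to 9.53, and the groups of the other means overlap.

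Of the genes through which these receptors signal, 0 of 18 passed, with 7 above 0 and 11 below and a median of -0.28. Ptpn6, a phosphatase recruited by inhibitory receptors, read 7.46, 9.15 and 9.01 in controls and 7.40, 8.14 and 7.62 in mutants (log2 difference -0.82, limma adjusted p = 0.634). Its relative Ptpn11 differed by 0.10. Syk, the kinase below the activating receptors, read 6.59, 8.02 and 8.08 against 6.53, 7.01 and 6.46 (-0.90). For Ptpn6 and Syk control 1 lay with the mutants and controls 2 and 3 lay above every other array. Nlrp3, the inflammasome sensor, ran the other way, at 4.97, 5.07 and 5.05 against 5.63, 5.63 and 5.83, with groups apart but an adjusted p of 0.0591 in limma (log2 difference 0.67). It passed with array weights (adjusted p = 0.0170) and without control 1 (0.0493), fits that called 291 and 388 genes in all.

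Myeloid and lung lectins outside the Clec names also had no called gene, at 0 of 25, with 13 above 0 and a median of 0.032. Cd209f, a relative of the dendritic cell receptor DC-SIGN, came nearest the threshold. It read 6.54, 6.42 and 6.40 in controls and 5.56, 5.89 and 5.59 in mutants (log2 difference -0.77, SE 0.114, limma adjusted p = 0.0789). With array weights it passed (-0.80, adjusted p = 0.0140 in limma), a fit that called 291 genes in all. Cd207, or langerin, read 4.33, 4.14 and 4.23 against 4.74, 5.02 and 4.58 (0.54, adjusted p = 0.245). Cd209f and Cd207 differed in opposite directions, each with groups that did not overlap. The other measured Cd209 genes also lay below 0, from -0.006 to -0.46, and none passed. Over the 25 genes, groups did not overlap for 2 genes higher in mutants and 4 lower, beside 9.33% and 5.64% of all genes.

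The Clec2 family, several of whose products are ligands of Klrb1 receptors on natural killer cells, had 8 measured members, of which 0 passed, 3 lay above 0 and 5 below. Clec2d, the ligand Clr-b found on most blood cells, read 10.38, 10.46 and 10.65 in controls and 10.14, 10.92 and 10.41 in mutants, a log2 difference of -0.007 (95% interval -0.49 to 0.48). Clec2m read 4.57, 4.59 and 4.68 against 4.93, 4.79 and 4.77 (0.22, limma adjusted p = 0.469), and Clec2h, or Clr-f, read 5.21, 5.14 and 5.18 against 5.28, 5.24 and 5.30 (0.10, adjusted p = 0.738). Both had groups apart by at most 0.1 log2 units, on dim rows.

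Clec2i, or Clr-g, and Clec2g had the largest negative differences of the family. Clec2i read 5.32, 6.60 and 6.03 in controls and 4.94, 5.67 and 5.16 in mutants (-0.72, 95% interval -1.55 to 0.10, limma adjusted p = 0.561). Clec2g read 4.15, 5.24 and 4.66 against 3.99, 4.27 and 4.14 (-0.55, -1.19 to 0.08). For both genes control 1 lay among the mutants and controls 2 and 3 were high. The B and plasma cell list ordered the controls alike, averaging 6.21, 9.31 and 9.11 over its genes in controls against 5.73, 7.63 and 5.93 in mutants, and all 11 of its measured genes lay below 0. T and NK cell genes had mean levels of 6.00, 7.30 and 7.25 against 5.66, 6.44 and 5.67. The part of these cells in the Clec2i and Clec2g values was not tested. Both differences were smaller without control 2, where Clec2i differed by -0.41 (limma adjusted p = 0.878) and Clec2g by -0.27. Without control 1 they were -1.06 and -0.82. Clec2i passed without control 1 and mutant 2 together (-1.26, adjusted p = 0.0298 in limma), a setting chosen after seeing the data in which 963 genes passed.

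Of the 4 measured Klrb1 receptor genes, 0 passed. Klrb1b, the inhibitory receptor for Clec2d, read 5.91, 6.65 and 5.86 in controls and 5.06, 5.29 and 5.07 in mutants, with groups apart (log2 difference -1.0, limma adjusted p = 0.208). Klrb1f read 4.88, 5.55 and 5.05 against 4.30, 4.78 and 4.46 (-0.65, adjusted p = 0.387). Klrb1a differed by 0.10 and Klrb1c by -0.014, with overlapping groups. The list of lectin-fold receptors of the natural killer complex had 0 of 18 measured genes called, 5 above 0 and 13 below, with a median of -0.10. It also held Cd72, a B cell gene outside the complex (log2 difference -1.98, overlapping groups). Klra2, a member of the Ly49 family, had the largest difference of the 5 genes above 0. It read 5.46, 5.74 and 5.64 against 6.20, 7.35 and 5.97, with groups apart (0.89, adjusted p = 0.474 in limma).

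Because Clec12a lies inside this gene complex, its neighbours were read in chromosome order. Of the 20 measured genes nearest to it, 10 on each side, 0 passed, 8 lay above 0 and 12 below, and the differences ran from -1.19 to 0.59. The nearest on the 2 sides were Clec2m (0.22) and Clec12b (-0.17). The lowest was Cd69, an early activation marker of lymphocytes, which read 4.74, 6.47 and 6.74 in controls and 4.30, 5.56 and 4.53 in mutants. The highest was Olr1, a receptor for oxidised lipoprotein with a lectin fold, at 5.63, 5.08 and 5.50 against 5.97, 6.55 and 5.46. None of the neighbours differed by as much as Clec12a.

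**Figure D4:**
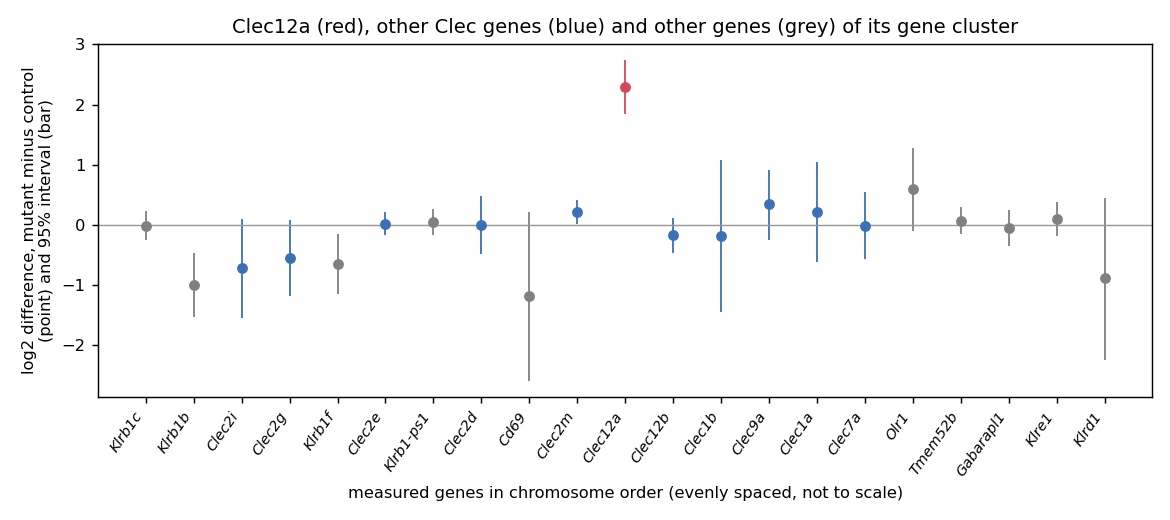
Log2 difference, mutant minus control, with 95% interval for Clec12a and the 10 measured genes on each side of it in chromosome order, evenly spaced. Clec12a stands at 2.29, and the other 20 genes lie between -1.19 and 0.59.

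Lectins of macrophages and liver sinusoids had 0 of 3 called. Clec10a, a galactose-binding receptor of macrophages, read 5.83, 5.38 and 6.10 in controls and 5.52, 5.70 and 5.20 in mutants (log2 difference -0.30, 95% interval -0.80 to 0.21). Clec4f, known from Kupffer cells of the liver, read between 4.60 and 4.76 on every array, and Clec4g, known from sinusoidal endothelium, differed by -0.22.

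Lectins of blood vessels and platelets had 0 of 3 called, and their values followed single arrays. Clec14a, an endothelial surface protein, read 9.08, 8.36 and 9.06 in controls and 8.84, 9.50 and 8.74 in mutants (0.19, 95% interval -0.46 to 0.85). Clec1a, also of endothelium, read 7.87, 7.14 and 7.65 against 7.17, 8.47 and 7.67 (0.22). Control 2 was the lowest control array and mutant 2 the highest mutant array in both. The endothelial list also had its lowest control level in control 2 and its highest mutant level in mutant 2, with ranges of 8.58 to 9.26 and 8.55 to 9.26. Clec1b, or CLEC-2, the platelet receptor for podoplanin, read 7.15, 5.24 and 6.16 against 5.36, 6.61 and 6.00. Its difference of -0.19 had the widest interval of the 33 members, from -1.45 to 1.07. Pf4, a platelet chemokine, read 10.16, 8.89 and 9.55 against 8.54, 9.96 and 9.49, with the same order of arrays as Clec1b within each group. The part of platelets or vessels in these values was not tested.

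**Figure D5:**
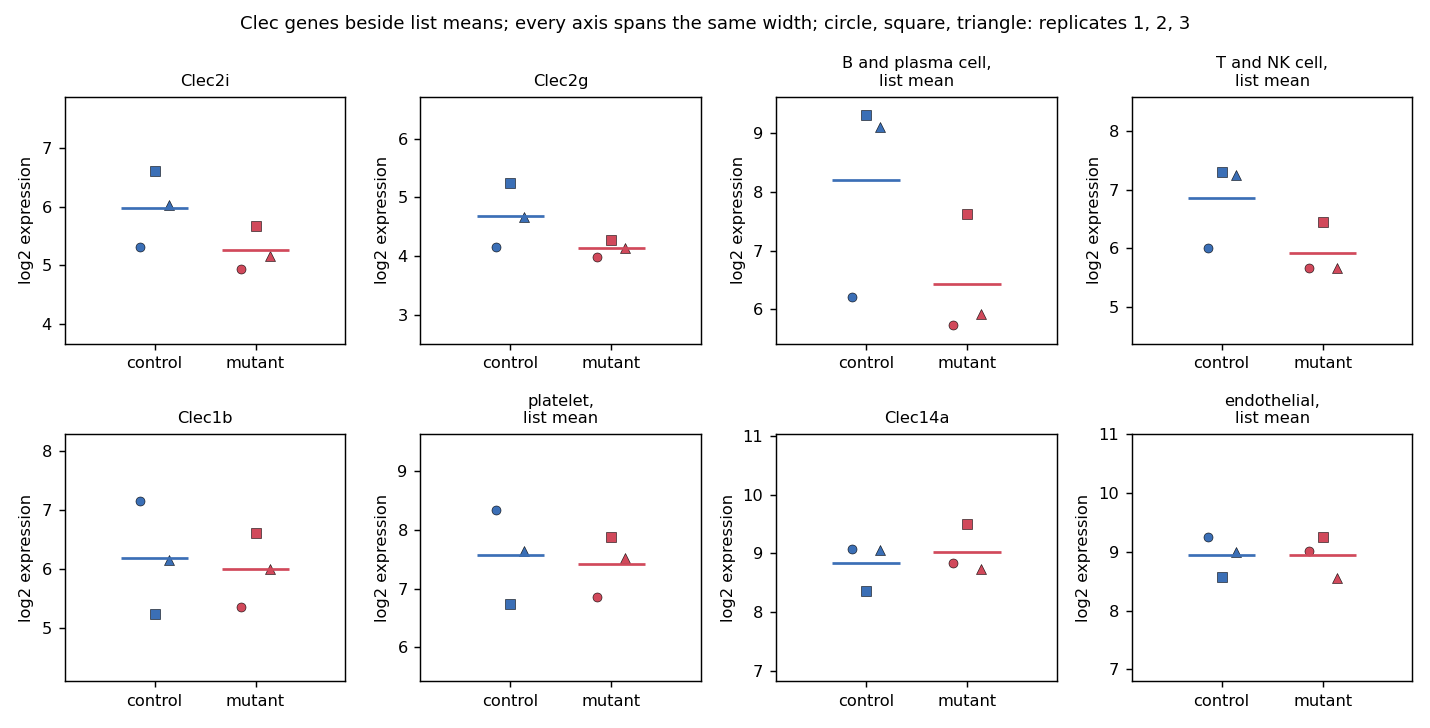
Clec2i, Clec2g, Clec1b and Clec14a beside the mean levels of lymphoid, platelet and endothelial lists in each array (log2 expression; every axis spans the same width; bars, group means). Control 1 lies with the mutants for Clec2i, Clec2g and the B and plasma cell list, and it is the highest control for Clec1b and the platelet list.

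The secreted members and the intracellular member had 0 of 5 called. Clec3b, the plasminogen-binding protein tetranectin, differed by 0.10 (95% interval -0.30 to 0.51), Clec11a, a secreted growth factor of the skeleton, by 0.017 (-0.28 to 0.32) and Clec18a by 0.11 (-0.10 to 0.32). Clec3a, a cartilage protein, read 6.28, 5.24 and 5.41 in controls and 5.54, 5.37 and 5.19 in mutants. Its high value in control 1 coincided with that array's cartilage list level of 5.41, against 4.89 to 5.12 on the other arrays. Clec16a, which acts in autophagy rather than as a surface lectin, read between 7.83 and 7.98 on every array and had a difference of 0.016 (-0.18 to 0.21).

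The remaining Clec2 genes varied little. Clec2e read between 4.18 and 4.33, Clec2j between 4.10 and 4.46 and Clec2l between 4.60 and 5.06 over the 6 arrays. By mean over all arrays, 5 members lay below the lower quartile of all array values (4.47), 14 between it and the median (5.92), 10 between the median and the upper quartile (7.85) and 4 above that. With 3 arrays a group, the precision of every value is limited by their number.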

How the data were processed

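The deposited table holds log2 expression values, 35556 rows by 6 arrays. RMA, oligo and limma are named, without versions, in the submitters' processing notes. The sources used here do not state the array's genome build or which arrays were normalised jointly. Array medians ran from 5.89 to 5.95. Platform annotation named 1 gene for 21789 rows, several for 1621 and none for 12146, leaving 19938 genes.

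A linear model with genotype as its only term was fitted to all genes, unfiltered, with lmFit and eBayes of limma 3.58.1 under R 4.3.3. Tests were two-sided, with Benjamini-Hochberg adjustment over all genes and a threshold of 0.05. The procedure was tested on simulated data. Named genes were all members, and from the other lists genes that passed or that ranked among the first by p. Exceptions were Ptpn6, Ptpn11, Syk, Klra2, Klrb1a, Klrb1c, Klrb1f, Cd69, Cd72, Olr1, Scgb1a1, Pf4 and Marco, named for their role or after their values were seen. The members and lists were chosen with earlier results of these data known. Alternatives were other normalisations, a filter on the lowest 40% of genes, a replicate block, array weights, row means, variance models and leaving out arrays. Promoter sequences came from RefSeq (GRCm38.p6), and tables and figures were made in Python 3.11.15 with pandas 2.3.3 and matplotlib 3.10.9.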

Additional observations from a re-analysis of the deposited data

How the results depend on the processing

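The log2 difference of Clec12a was above 0 under all 15 alternatives, from 2.01 to 2.43, and passed limma's threshold in 9 of them, with adjusted p from 0.000987 to 0.0927. With the replicate block it was 2.29 with an adjusted p of 0.0717, and 0 genes of the whole table passed. The same-numbered arrays deviated together with correlations of 0.136, -0.091 and -0.040, so the numbers were not taken to pair the samples. Leaving out 1 array at a time gave differences of 2.11 to 2.43 and between 0 and 1 called Clec genes. With the replicate block 0 Clec genes were called, and 2 were without control 1 and mutant 2 together. Clec12a minus the other myeloid genes moved by less than the spread between replicates under each alternative run. Role medians moved further in 3 cases, to -0.43 for macrophage and sinusoid receptors with array weights, and to -0.35 for pattern and damage receptors and -0.13 for Clec2 genes without control 1 and mutant 2 together, and the cause was not tested. For the other 32 genes, 1 of 461 values under alternatives passed, that of Clec2i, and 54 had the other sign. The filter kept 14 of the 33 genes. Over all genes, counts of calls were 53 as reported, 291 with array weights, 963 without control 1 and mutant 2 together and 9 to 388 without 1 array. Cd209f, Nlrp3, Cd14, Flt3, Mmp9 and Retnlg passed without control 1 and mutant 2 together.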

Other observations

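The second row of Clec4g read 4.40, 4.20 and 4.26 in controls and 4.40, 4.27 and 4.30 in mutants, below the lower quartile of all array values. The row used in the report read 5.15, 4.96 and 5.51 against 4.77, 5.29 and 4.89, and groups overlapped on both rows.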
